A study of Mus musculus with 9 samples.

Results

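The immediate early genes examined here were *Fos*, *Fosb*, *Jun*, *Junb*, *Egr1*, *Egr2*, *Arc*, *Ier2*, *Nr4a1* and *Dusp1*, 10 genes picked by symbol as a family. No rule on their values was used, but earlier results of these data were known when they were picked. All 10 were present among the 55401 genes counted, and 8 were among the 17818 genes that passed the filter on low counts. *Fosb* and *Egr2* did not pass and were not tested. Expression was measured by RNA-seq in bulk forebrain of female mouse embryos at E16 to E17, with 5 wild-type (WT, *Npas3*+/+) embryos and 4 embryos heterozygous for a constitutive deletion of *Npas3* (HET, *Npas3*+/-). The line was kept on C57BL/6J, the controls were WT littermates, no treatment is named, and WT and HET are compared in order to find what a reduced dose of *Npas3* changes in the embryonic forebrain. Embryos are called here by genotype and by the number in their titles, as WT5 or HET7.

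Immediate early genes are transcribed within minutes of a stimulus by transcription factors that are already present in the cell, without new protein synthesis. In the brain they are best known as markers of neuronal activity, and growth factors and cell stress induce them as well. Serum response factor at CArG boxes and CREB at cyclic AMP response elements are the classical regulators at their promoters. Most members encode transcription factors: FOS and JUN proteins pair to form AP-1, EGR1 and EGR2 are zinc finger factors, and NR4A1 is an orphan nuclear receptor. ARC acts at the synapse on AMPA receptor endocytosis, and DUSP1 is a phosphatase that switches off MAP kinases.

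To show what the promoters of the family share, the stretch upstream of the start is given for 5 tested members. These are the ones whose promoter in the RefSeq table (GRCm38.p6) was scanned. Each line holds 200 bases, from 250 to 51 bases upstream of the start, and capitals mark the letters TGACG, the core of the cyclic AMP response element, on either strand (CGTCA when read on the other strand) and, in *Dusp1*, the full TGACGTCA. These letters were chosen because CREB sites are a classical feature of the family. The windows are chr12:85473640-85473839 on the plus strand for *Fos*, chr4:95052273-95052472 on the minus strand for *Jun*, chr8:84978799-84978998 on the minus strand for *Junb*, chr15:101266596-101266795 on the plus strand for *Nr4a1* and chr17:26508523-26508722 on the minus strand for *Dusp1*.
Fos: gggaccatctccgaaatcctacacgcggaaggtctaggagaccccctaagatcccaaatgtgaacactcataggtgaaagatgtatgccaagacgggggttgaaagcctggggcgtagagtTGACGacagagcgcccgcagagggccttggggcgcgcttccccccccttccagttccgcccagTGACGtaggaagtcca
Jun: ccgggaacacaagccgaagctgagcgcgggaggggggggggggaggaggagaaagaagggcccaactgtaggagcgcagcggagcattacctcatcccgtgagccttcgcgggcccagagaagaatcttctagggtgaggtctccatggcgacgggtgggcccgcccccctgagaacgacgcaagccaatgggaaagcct
Junb: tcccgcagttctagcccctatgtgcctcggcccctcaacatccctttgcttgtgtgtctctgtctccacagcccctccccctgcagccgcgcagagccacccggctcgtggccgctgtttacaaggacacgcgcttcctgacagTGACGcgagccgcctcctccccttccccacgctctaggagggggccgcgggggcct
Nr4a1: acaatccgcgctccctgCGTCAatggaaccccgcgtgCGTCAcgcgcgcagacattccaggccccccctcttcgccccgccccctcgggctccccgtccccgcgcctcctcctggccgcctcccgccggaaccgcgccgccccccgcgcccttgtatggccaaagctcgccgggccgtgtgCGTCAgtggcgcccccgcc
Dusp1: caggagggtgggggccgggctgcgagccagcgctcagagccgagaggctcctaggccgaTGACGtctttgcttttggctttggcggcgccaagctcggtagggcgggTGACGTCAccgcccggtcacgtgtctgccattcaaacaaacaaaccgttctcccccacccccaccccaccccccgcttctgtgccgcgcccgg
Promoters were matched for 7 of the 10 members, with 11 promoters in all because *Egr2* has 5 starts. No promoter of *Egr1*, *Arc* or *Ier2* was scanned. The counts of members below leave them out, and whether their promoters hold these motifs was not tested. In the full 250 bases upstream of the start, TGACG stood in 6 of the 7 members (all but *Jun*), beside 19.8% of the 27025 genes in the table. By promoter it stood in 8 of the 11 (72.7%), beside 17.8% of the 32851 promoters. The *Egr2* promoters beginning at 67537619, 67537620 and 67537680 overlap each other and hold the same copies. *Nr4a1* held 4 copies, beginning 233, 213, 69 and 40 bases upstream (the last lies outside the stretch shown), and *Fos* held copies at 129 and 66 bases. The full TGACGTCA stood in *Dusp1* alone among these 7 members, 143 bases upstream, beside 1.77% of genes. Its TGACG copies at 143 and 140 bases are parts of that 1 site. The CArG box was matched in 4 of the 5 *Egr2* promoters and in 1.47% of all promoters. The overlapping *Egr2* promoters hold the same box. The one beginning at 67537316 ends before them and holds a different box. The AP-1 letters TGANTCA were found in 0 of the 7 members (7.82% of genes) and in 0 of the 11 promoters (6.75% of all). The E-box letters CANNTG were found in 6 of the 7 members (69.3% of genes) and in 9 of the 11 promoters (66.2% of all). Sequence farther than 250 bases upstream was not scanned, so a motif not found here may lie beyond that window. Base composition was not matched in these shares, and a match of letters is a description of sequence, not of binding.

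Libraries held 42640218 to 62830060 counts, with a median of 45845845. *Npas3* itself was at 36.2 ± 4.18 CPM (counts scaled to library size; mean ± SD, n = 5) in WT and 29.5 ± 3.09 CPM (n = 4) in HET, with overlapping groups. Its log2 fold change (HET minus WT) was −0.30 (standard error 0.10). The unadjusted p was 0.0134 and the adjusted p 0.877 in edgeR's quasi-likelihood test. The choroid plexus gene *Ttr* was at 467 to 2631 CPM in WT15, WT16, WT41 and HET24 and at 0.770 to 11.7 CPM in the other 5 embryos. The labels name astrocytes as the cell type and forebrain as the tissue. Excitatory neuron markers summed to 1563 to 2083 CPM and astrocyte markers to 279 to 366 CPM per embryo, so the data are described as bulk forebrain. One library stood apart for the immediate early genes themselves. WT5 had the highest CPM of all 9 embryos for 6 of the 8 tested members (75%), whereas it was the highest for 14% of the 17818 tested genes. It was singled out after these values were seen, and results that rest on it are given with and without it.

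No immediate early gene was called different between genotypes. Of the 8 tested members, 0 were called higher and 0 lower in HET at an adjusted p under 0.05 in edgeR, and 0 had an unadjusted p under 0.05. The background was 0.0281% of all tested genes called higher, 0.112% called lower and 5.42% with an unadjusted p under 0.05. DESeq2 and limma-voom also called 0 members, with 0.381% and 0.14% of all their genes called. The members had a median log2 fold change (HET minus WT) of −0.0018, beside −0.0046 over all tested genes. WT and HET overlapped in every member, with 0.786% of tested genes lying wholly above and 1.07% wholly below WT in HET. In bulk tissue, fewer cells of a type and less RNA per cell cannot be told apart, and this holds for every level given here.

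**Figure D1:**
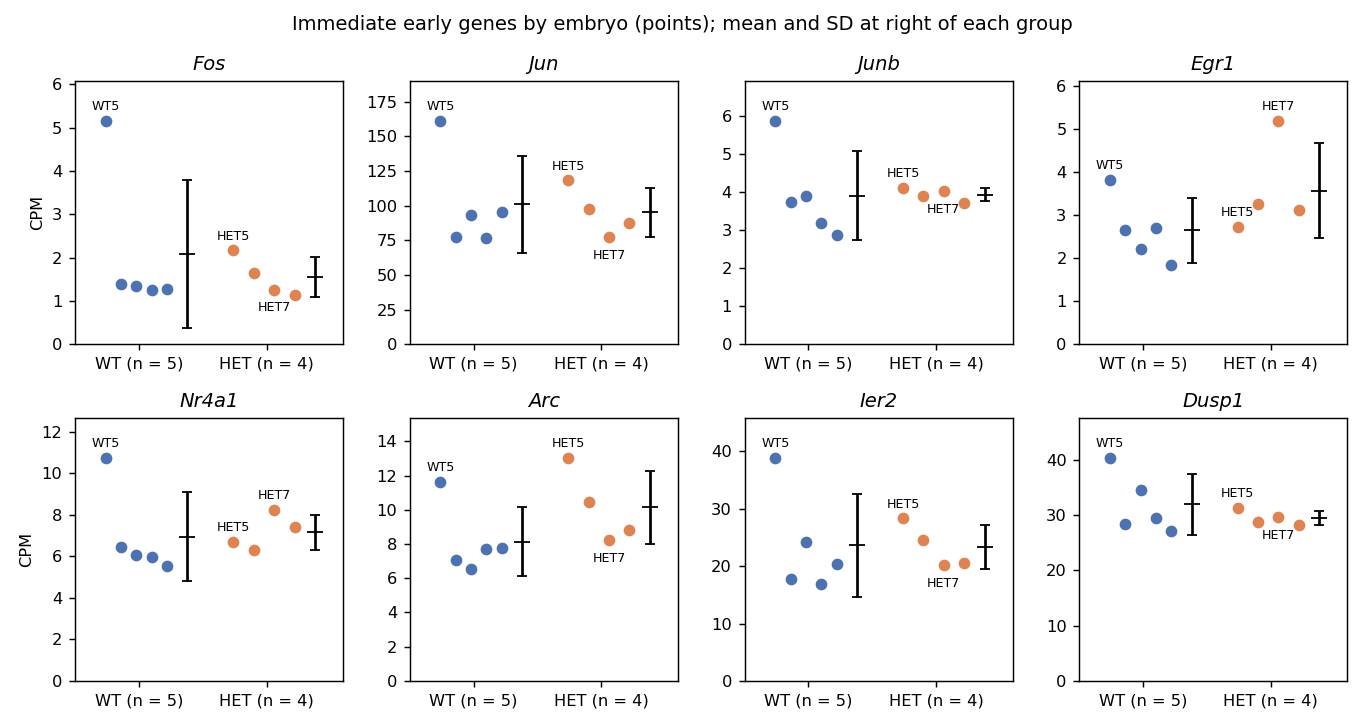
Expression of the 8 tested immediate early genes in CPM (linear axes from 0) in each embryo, with WT in blue, HET in orange, and the mean and SD drawn as a bar at the right of each group. WT5 is the highest point for 6 of the 8 genes, HET7 is the highest for *Egr1* at 5.19 CPM and HET5 for *Arc* at 13.03 CPM.

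Among the AP-1 subunits, *Fos* varied most between embryos and was not called between genotypes. *Fos* (ENSMUSG00000021250; chromosome 12, 85473890 to 85477273, GRCm38, plus strand) lies 31401715 bases from the end of *Npas3* on the same chromosome. Its expression was 5.15 CPM in WT5, 1.39 in WT15, 1.35 in WT16, 1.24 in WT41 and 1.28 in WT43, and 2.17 CPM in HET5, 1.65 in HET6, 1.26 in HET7 and 1.13 in HET24. WT5 alone was far above the others, 3.91-fold above the mean of the other 4 WT embryos, which lay close together, while HET5 and HET6 were above those 4 and HET24 was the lowest of all. The means were 2.08 ± 1.71 CPM in WT (n = 5) and 1.55 ± 0.464 CPM in HET (n = 4), and the log2 fold change was −0.42 (SE, the standard error, 0.45, edgeR adjusted p = 0.922). Without WT5 the WT mean was 1.32 ± 0.0667 CPM and the log2 fold change was 0.24 (SE 0.21, edgeR adjusted p = 0.755).

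*Jun* (ENSMUSG00000052684; chromosome 4, 95049034 to 95052222, minus strand) encodes the AP-1 partner of FOS, and 7.28% of its exonic bases are shared with the antisense gene *Junos*, whose reads cannot be told apart from those of *Jun* if strand was not used. Its expression was 161 CPM in WT5, 77.2 in WT15, 93.4 in WT16, 77.0 in WT41 and 95.7 in WT43, and 118 CPM in HET5, 97.5 in HET6, 77.4 in HET7 and 87.6 in HET24. WT5 was again the highest and HET5 came next, and the other 7 embryos of both genotypes were mixed. The log2 fold change was −0.08 (SE 0.21, edgeR adjusted p = 0.955) and 0.15 (SE 0.13) without WT5. *Junb* (ENSMUSG00000052837; chromosome 8, 84974484 to 84978718, minus strand) encodes another JUN protein, and *Prdx2* overlaps 7.52% of its exonic bases on the opposite strand. Its expression was 5.87 CPM in WT5, 3.74 in WT15, 3.89 in WT16, 3.18 in WT41 and 2.87 in WT43, and 4.11 CPM in HET5, 3.89 in HET6, 4.03 in HET7 and 3.71 in HET24. The HET embryos lay within a narrow band, inside the range of WT. The log2 fold change was 0.01 (SE 0.19, edgeR adjusted p = 0.995) with WT5 and 0.20 (SE 0.13) without it. *Fosb* (ENSMUSG00000003545; chromosome 7, 19302696 to 19310051, minus strand), a paralog of *Fos*, had counts of 14 in WT5, 8 in WT15, 12 in WT16, 10 in WT41 and 7 in WT43, and of 5 in HET5, 13 in HET6, 7 in HET7 and 10 in HET24. HET5 was below every WT embryo, WT5 was above every HET embryo and the others overlapped, and the counts were too few for the test.

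*Egr1* and *Nr4a1* followed another order of embryos, in which HET7 was high. *Egr1* (ENSMUSG00000038418; chromosome 18, 34859823 to 34864984, plus strand) encodes a zinc finger factor widely used as an activity marker. Its expression was 3.82 CPM in WT5, 2.65 in WT15, 2.22 in WT16, 2.71 in WT41 and 1.83 in WT43, and 2.73 CPM in HET5, 3.26 in HET6, 5.19 in HET7 and 3.11 in HET24. HET7 was the highest and WT5 came next, and the 4 HET embryos all lay above the 4 WT embryos other than WT5, although HET5 exceeded WT41 only slightly. The means were 2.65 ± 0.748 CPM in WT (n = 5) and 3.57 ± 1.10 CPM in HET (n = 4), and the log2 fold change of 0.43 (SE 0.24) had an unadjusted p of 0.0978 and an adjusted p of 0.911 in edgeR. It became 0.60 (SE 0.22) without WT5 and 0.20 without HET7.

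*Nr4a1* (ENSMUSG00000023034; chromosome 15, 101254269 to 101274795, plus strand) was at 10.8 CPM in WT5, 6.46 in WT15, 6.07 in WT16, 5.97 in WT41 and 5.54 in WT43, and at 6.69 CPM in HET5, 6.33 in HET6, 8.23 in HET7 and 7.43 in HET24. WT5 was the highest, HET7 and HET24 followed, and HET6 was below WT15, so that the genotypes overlapped also without WT5. The log2 fold change was 0.05 (SE 0.19, edgeR adjusted p = 0.977) with WT5 and 0.26 (SE 0.12, adjusted p = 0.505) without it. *Egr2* (ENSMUSG00000037868; chromosome 10, 67535475 to 67542188, plus strand), known for its role in hindbrain segmentation and myelination, had 1 count in WT5, 1 in HET5, 2 in HET7 and 0 in the other 6 embryos. No embryo reached 3 counts, the smallest number taken here as a signal, which corresponds to 0.0473 to 0.0722 CPM at these depths and covers counting error only.

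*Arc* (ENSMUSG00000022602; chromosome 15, 74669083 to 74672570, minus strand) was, with *Egr1*, a member in which a HET embryo exceeded WT5, here HET5. Its expression was 11.6 CPM in WT5, 7.05 in WT15, 6.57 in WT16, 7.71 in WT41 and 7.75 in WT43, and 13.03 CPM in HET5, 10.48 in HET6, 8.23 in HET7 and 8.83 in HET24. All 4 HET embryos lay above all WT embryos except WT5. The means were 8.14 ± 2.02 CPM in WT (n = 5) and 10.1 ± 2.15 CPM in HET (n = 4), and the log2 fold change of 0.32 (SE 0.19) had an unadjusted p of 0.118 and an adjusted p of 0.911 in edgeR. It became 0.48 (SE 0.15) without WT5 and 0.17 without HET5.

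The remaining members are *Ier2*, which encodes a small nuclear protein, and *Dusp1*, which encodes the feedback phosphatase. *Ier2* (ENSMUSG00000053560; chromosome 8, 84661331 to 84662852, minus strand) was at 38.9 CPM in WT5, 17.8 in WT15, 24.3 in WT16, 16.9 in WT41 and 20.4 in WT43, and at 28.3 CPM in HET5, 24.6 in HET6, 20.2 in HET7 and 20.5 in HET24. As for *Jun*, WT5 was the highest and HET5 came second, and the genotypes were mixed below them. Its log2 fold change was −0.01 (SE 0.23, edgeR adjusted p = 0.995) and 0.24 (SE 0.14) without WT5. *Dusp1* (ENSMUSG00000024190; chromosome 17, 26505590 to 26562128, minus strand) was at 40.3 CPM in WT5, 28.3 in WT15, 34.6 in WT16, 29.4 in WT41 and 27.1 in WT43, and at 31.3 CPM in HET5, 28.7 in HET6, 29.6 in HET7 and 28.2 in HET24. It varied least of the 8 tested members, and the HET embryos lay inside the range of WT. Its log2 fold change was −0.12 (SE 0.11, edgeR adjusted p = 0.913) and −0.02 (SE 0.09) without WT5.

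Levels of different genes were compared as CPM per kilobase of exonic sequence. *Jun* was the most abundant member, with a median over the 9 embryos of 29.3 CPM per kb and a range of 24.1 to 50.5. *Ier2* followed at 13.5 CPM per kb (11.1 to 25.5) and *Dusp1* at 8.89 (8.19 to 12.2). The ranges of these neighbours overlapped, but within each of the 9 embryos *Jun* was above *Ier2* and *Ier2* above *Dusp1*. *Arc* at 2.69 CPM per kb, *Nr4a1* at 1.84 and *Junb* at 1.69 formed a middle group, with ranges that also overlapped. Within each embryo *Arc* was above *Nr4a1* and *Nr4a1* above *Junb*. *Egr1* at 0.608 CPM per kb (0.409 to 1.16) and *Fos* at 0.573 (0.482 to 2.19) were low and did not differ beyond their spread. *Fosb* had a median of 0.0283 CPM per kb, and the median of *Egr2* was 0. *Egr1* and *Fos* were the 2 lowest of the 8 tested members in each of the 9 embryos, also in WT5, where *Fos* at 2.19 CPM per kb stood between *Junb* at 2.55 and *Egr1* at 0.853.

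Most members varied more between embryos of 1 genotype than a typical gene. The SD of log2 CPM within genotype was 0.71 for *Fos*, and 3.92% of all tested genes had a larger one. It was 0.37 for *Jun*, 0.40 for *Ier2*, 0.39 for *Egr1*, 0.31 for *Arc*, 0.31 for *Nr4a1*, 0.30 for *Junb* and 0.18 for *Dusp1*. The median was 0.34 over the members and 0.18 over all tested genes. Without WT5 these medians were 0.22 and 0.17, and 25.9% of genes had a larger SD than *Fos*. *Junb* (0.15), *Nr4a1* (0.13) and *Dusp1* (0.12) were then below the median of all tested genes. *Fos*, *Jun*, *Egr1*, *Arc* and *Ier2* stayed above it. The spread of the family thus rested largely on WT5, in which the 8 members were 1.35-fold (*Dusp1*) to 3.91-fold (*Fos*) above the mean of the other 4 WT embryos.

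**Figure D2:**
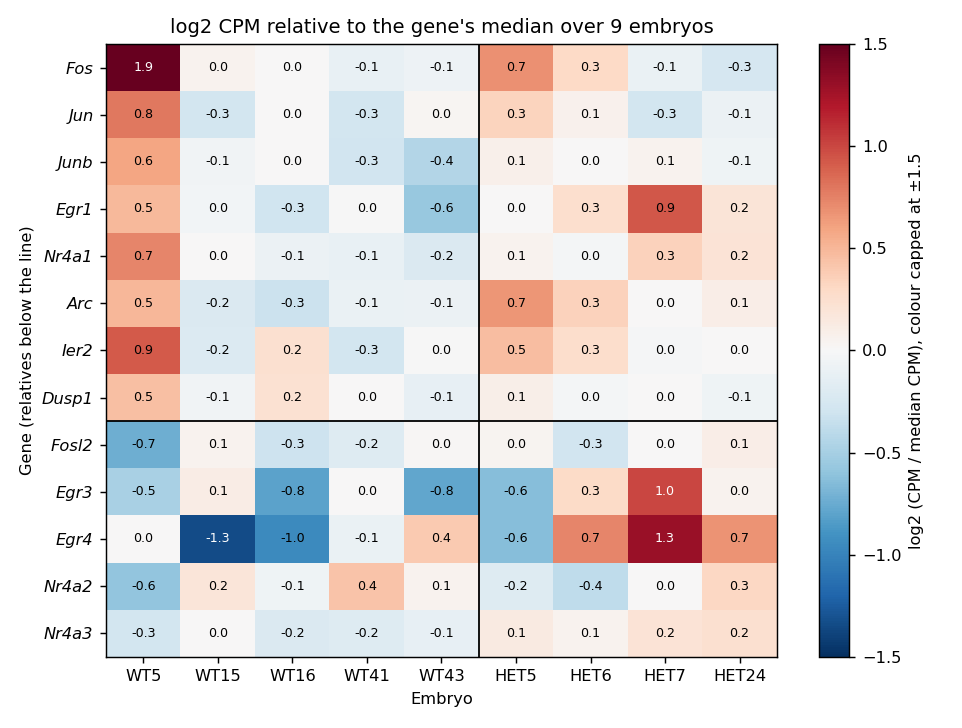
The log2 CPM of 8 members (above the horizontal line) and 5 paralogs (below it) in each of 9 embryos relative to the gene's median, with WT left and HET right of the vertical line and colours capped at 1.5. The WT5 column is red for all 8 members, reaching 1.93 for *Fos*, and is at or below 0 for the 5 paralogs.

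Genotype differences of the family moved when WT5 was left out. The members then had a median log2 fold change of 0.24, beside −0.0038 over all genes, and 7 of the 8 values were above 0. With 4 WT and 4 HET embryos, 0 members were called in edgeR, beside 0.0169% of genes called higher and 0.113% called lower. The unadjusted p was under 0.05 for 2 members, *Egr1* and *Arc*, beside 4.6% of all genes with such a p and a higher value in HET (9.97% in either direction). In edgeR *Egr1* had an unadjusted p of 0.0218 and an adjusted p of 0.395, and *Arc* had 0.00926 and 0.314. For the same 2 members every HET embryo lay above every WT embryo, as for 2.86% of all genes, and for 0 members every HET embryo lay below (2.85% of all genes). *Nr4a1* had an unadjusted p of 0.0516 in edgeR, and the other 5 members had 0.127 to 0.820. WT5 was chosen for being high in these genes, so leaving it out lowers their WT means by construction, and these values do not stand as separate evidence of a genotype difference.

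**Figure D3:**
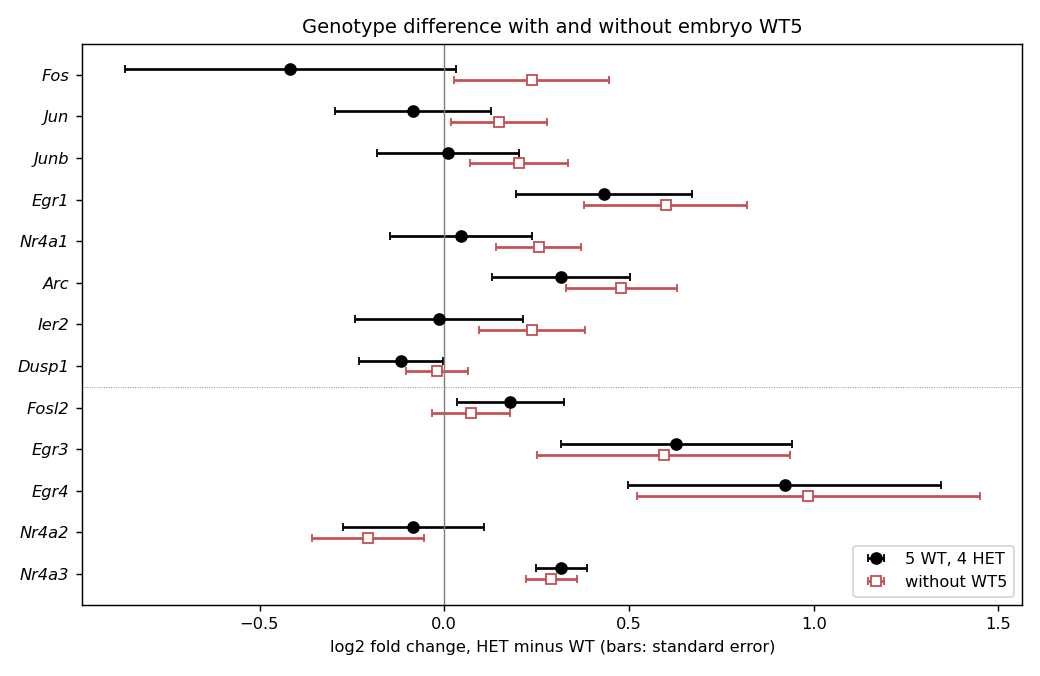
The log2 fold change (HET minus WT) from edgeR of the 8 tested members and 5 paralogs (below the dotted line) over all 9 embryos (filled circles) and without WT5 (open squares), with bars of 1 standard error. Without WT5, 7 of the 8 members lie above 0, with *Fos* moving from −0.42 to 0.24, while *Nr4a3* stays near 0.3 in both.

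Members were high and low in the same embryos, again mainly through WT5. Over the 28 pairs of tested members, the Pearson correlation of log2 CPM after centring on genotype means had a median of 0.77 and ran from 0.12 (*Egr1* with *Arc*) to 0.97 (*Jun* with *Ier2*), with all 28 above 0. The median over all pairs of tested genes was −0.0010, and the median Spearman correlation of the members was 0.56. These correlations describe 9 embryos whose values share their library and depth, and no test is attached. Without WT5 the median was 0.30, and 17 of the 28 pairs were above 0. In those 8 embryos *Jun* still ran with *Ier2* (0.90), *Fos* with *Arc* (0.83) and *Egr1* with *Nr4a1* (0.78), whereas *Jun* ran against *Egr1* (−0.87) and *Nr4a1* (−0.76). HET5 was high in the first group and HET7 in the second. Without WT5 and HET5 the median was 0.16.

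**Figure D4:**
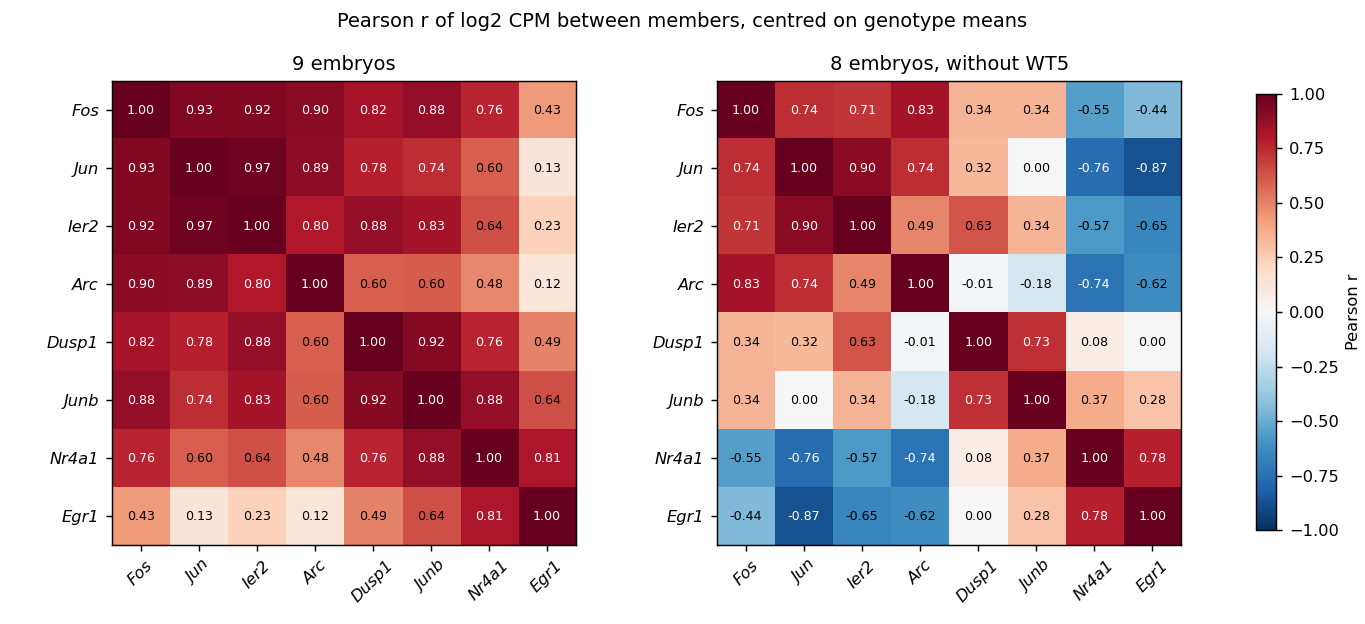
Pearson r of log2 CPM, centred on genotype means, between the 8 tested members over 9 embryos (left) and over the 8 embryos other than WT5 (right), with red for positive and blue for negative values. All 28 pairs are positive on the left, and on the right *Egr1* and *Nr4a1* are negative against *Fos*, *Jun*, *Ier2* and *Arc*.

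Cell markers, stress genes and depth were set beside the high values of WT5. WT5 had the smallest total count of the 9 libraries, 42640218. Heat shock genes (11 genes) summed to 2589 CPM in WT5 and to 2363 to 2844 CPM in the other 8 embryos. The heat shock sum of WT5 thus lay inside the range of the others. The 2 most abundant of these genes gave 911 and 691 CPM of it, so the sum says little about those of low level. WT5 was the highest for 2 of the 11, neither of them those 2 abundant genes. GABAergic neuron markers were highest in WT5, at 458 CPM for 6 genes beside 170 to 432 CPM in the others, with 4 of the 6 genes at their highest there. Progenitor markers were also highest in WT5, at 2974 CPM for 8 genes beside 2038 to 2867 CPM. Erythroid markers summed to their lowest in WT5, at 220 CPM beside 348 to 568 CPM, with 5 of 7 tested genes at their lowest there. The embryonic globin *Hbb-y*, named after its values were seen, went the other way, at 12.1 CPM in WT5 and 0.889 to 2.94 CPM in the other 8 embryos. Microglia markers stood at 50.2 CPM beside 50.5 to 64.6 CPM. Endothelial markers (125 CPM beside 123 to 189 CPM) and meningeal fibroblast markers (18.1 CPM beside 15.3 to 55.5 CPM) in WT5 lay inside the range of the other embryos, and choroid plexus markers were at 39.4 CPM, as in the other embryos with low *Ttr* (1 of the 8 choroid plexus markers was at 0 in some embryo). Mural markers (98.6 CPM beside 92.3 to 130 CPM), oligodendrocyte lineage markers (50.1 CPM beside 25.7 to 58.9 CPM), astrocyte markers (321 CPM) and excitatory neuron markers (1672 CPM) in WT5 also lay inside the range of the others. HET5, second for *Fos*, *Jun* and *Ier2*, had the lowest GABAergic sum, 170 CPM. The part of these differences in the levels of the immediate early genes was not tested.

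The 4 embryos with high *Ttr* include 3 of the 5 WT embryos. With a choroid plexus score as a covariate, edgeR gave log2 fold changes of −0.78 for *Fos*, 0.39 for *Egr1* and 0.15 for *Arc*, with adjusted p of 0.881, 0.885 and 0.924. Where *Ttr* was under 100 CPM, in 2 WT embryos (WT5 and WT43) and 3 HET embryos, they were −0.92, 0.40 and 0.13, with an adjusted p of 0.999 for each.

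The 5 tested paralogs of the members were not highest in WT5, whereas 4 of all 12 tested family relatives were (33.3%). *Fosl2*, which encodes a FOS-related protein, was lowest in WT5, at 73.1 CPM beside 97.9 to 130 CPM in the other embryos, and *Nr4a2*, which encodes a receptor needed by dopaminergic neurons, was also lowest there, at 18.7 CPM beside 21.6 to 37.9 CPM. Their log2 fold changes were 0.18 (SE 0.15, adjusted p = 0.911) and −0.08 (SE 0.19, adjusted p = 0.950) in edgeR. *Egr3*, an EGR factor induced like *Egr1*, was at 1.71, 2.59, 1.37, 2.40 and 1.39 CPM in WT5, WT15, WT16, WT41 and WT43 and at 1.54, 2.91, 4.79 and 2.48 CPM in HET5, HET6, HET7 and HET24. As for *Egr1*, HET7 was the highest, and the groups overlapped. The log2 fold change of *Egr3* was 0.63 (SE 0.31, edgeR adjusted p = 0.911), and 0.29 without HET7. *Egr4*, with 85 counts in all, was also highest in HET7, at 0.413 CPM, and its log2 fold change was 0.92 (SE 0.42, edgeR adjusted p = 0.911).

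*Nr4a3*, the third NR4A receptor, was the one tested paralog in which the genotypes did not overlap. It was at 152, 184, 158, 161 and 169 CPM in WT5, WT15, WT16, WT41 and WT43 and at 201, 191, 213 and 217 CPM in HET5, HET6, HET7 and HET24. Every HET embryo lay above every WT embryo, with WT15 closest to HET6, as for 0.786% of all tested genes. The log2 fold change was 0.32 (SE 0.07), with an unadjusted p of 0.000768 and an adjusted p of 0.228 in edgeR, and 0.29 (SE 0.07) without WT5. The call depended on the tool, with an adjusted p of 0.0101 in DESeq2 and 0.263 in limma-voom. Per kilobase *Nr4a3* had a median of 30.7 CPM, above the 1.84 of *Nr4a1* and near the 29.3 of *Jun*. *Fosl1* had 0 to 3 counts per embryo, with 57.2% of its exonic bases overlapped by *Ccdc85b* on the opposite strand. *Jund* was listed at 0 in all 9 embryos, with 52.6% of its exonic bases overlapped by *Gm11175* on the opposite strand.

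In the wider pathway no list held a gene called by edgeR. The 14 family relatives (the paralogs with further IER and DUSP genes) had 12 tested members, 1 with an unadjusted p under 0.05 and a higher value in HET (*Nr4a3*) and 0 with a lower one. Of 34 tested genes in a list of other immediate early genes, 2 had such a p with a higher and 4 with a lower value in HET. The lowest p in this list belonged to *Ccn2*, which encodes a matricellular protein, with 7.52 ± 1.501 CPM in WT and 11.2 ± 2.40 CPM in HET (log2 fold change 0.57, adjusted p = 0.788 from edgeR) and 23.2% of its exonic bases overlapped by another gene. The next was *Bhlhe40*, which encodes a clock-linked repressor, with 16.5 ± 7.23 CPM in WT and 10.1 ± 1.57 CPM in HET (log2 fold change −0.70, adjusted p = 0.907 from edgeR). *Bhlhe40* was at 29.2 CPM in WT5 and 11.1 to 15.2 CPM in the other WT embryos, and its log2 fold change was −0.40 without WT5. WT5 was the highest embryo for 14 of the 34 genes (41.2%), beside 14% of all genes.

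Upstream regulators (28 kinases, cofactors and transcription factors) had 1 gene with an unadjusted p under 0.05, *Mef2d*, which encodes a calcium-responsive transcription factor and was higher in HET (log2 fold change 0.23, standard error 0.07, adjusted p = 0.788 from edgeR). *Crtc3*, which encodes a CREB coactivator, had the next p (log2 fold change 0.18, adjusted p = 0.911 from edgeR). WT5 was the highest embryo for 5 of the 28 genes (17.9%). Of the 10 late activity-response genes, which follow the immediate early wave, all 10 had a fitted log2 fold change above 0, beside 8639 of the 17818 tested genes, with a median of 0.16, and 2 had an unadjusted p under 0.05. These were *Bdnf*, the neurotrophin (log2 fold change 0.33, adjusted p = 0.908 from edgeR, 14.4% of exonic bases overlapped), and *Vgf*, which encodes a neuropeptide precursor (log2 fold change 0.60, adjusted p = 0.908 from edgeR). *Vgf* was at 4.61 to 8.43 CPM in WT and at 6.60, 10.01, 16.20 and 10.64 CPM in HET5, HET6, HET7 and HET24, so that HET7 was high here as for *Egr1*. Its log2 fold change was 0.34 without HET7. WT5 was the highest for 1 of the 10 genes. Among the heat shock genes, *Bag3*, which encodes a co-chaperone, was at 3.18 to 3.87 CPM in WT and 3.95 to 5.24 CPM in HET without overlap (log2 fold change 0.44, standard error 0.12, adjusted p = 0.558 from edgeR), and *Hspd1*, the mitochondrial chaperonin, had a log2 fold change of −0.10 (adjusted p = 0.911 from edgeR). Over all tested genes, 414 had an unadjusted p under 0.05 with a higher and 551 with a lower value in HET. DESeq2 called *Nr4a3* in these 5 lists, and limma-voom called 0 genes.

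Outside the lists, the 5 genes whose centred log2 CPM followed the members' mean most closely over the 9 embryos were *Zfp36l2* (r = 0.98), *Arrdc3* (0.98), *Wbp11* (0.97), *Mpped2* (0.97) and *Cdyl* (0.97). *Zfp36l2* was at 29.9 CPM in WT5 and 16.2 to 20.96 CPM in the others. *Arrdc3* was at 362 CPM in WT5 and 104 to 139 CPM in the others. The likeness rested in part on WT5, since r without it was 0.90 for *Zfp36l2* and 0.61 to 0.73 for the other 4. None of the 5 was called between genotypes in edgeR, with adjusted p of 0.911 to 0.943.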

How the data were processed

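RNA-seq of 5 WT and 4 HET forebrains was reanalysed from the deposited count of reads per gene, to which the authors applied no normalization. Per the study's methods, poly(A) RNA went into TruSeq libraries, of which the authors kept 1 read per pair, aligned with STAR 2.7.9a to GRCm38.p6 and counted with featureCounts on GENCODE M25. Whether strand was used is not given in the sources used here. Counts (42640218 to 62830060 per embryo, no identical pairs) were filtered with filterByExpr (minimum count 10), scaled by TMM and tested with edgeR 4.0.16 (R 4.3.3) by the quasi-likelihood test, HET against WT, without covariates, with Benjamini-Hochberg adjustment over 17818 genes and 0.05 as threshold. DESeq2 1.42.0, limma-voom (limma 3.58.1), other scalings and filters, a choroid plexus covariate (8 markers), embryos with *Ttr* under 100 CPM and leaving out each embryo were alternatives. Each embryo is a separate animal by its title, so p-values measure the spread between embryos. Log2 CPM used a prior count of 2. On simulated data of 17818 genes, 200 of them changed, edgeR recovered 78% of 2-fold and 94% of 4-fold changes, with 3.91% of calls false. Genes were simulated independently of each other, without an embryo that stands apart as WT5 does. More genes were changed than the 5 higher and 20 lower called in the real data. These shares therefore do not give the power for the members. Coordinates and exon overlaps came from GENCODE M21 (GRCm38), which lists 55141 of 55401 identifiers. Members, related lists and markers were chosen with earlier results of these data known. Named besides the members were their 7 paralogs, genes past the threshold or otherwise the 2 with the lowest p in each related list, *Npas3*, *Ttr* and the 5 genes (mean of at least 1 CPM) most like the members' mean. The genotype label reads Npas and was taken as *Npas3* from the study's methods, which also give the sex.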

Additional observations from a re-analysis of the deposited data

Results flagged for a closer look

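Of 30 groups examined (WT and HET for the 10 members and 5 further paralogs), 5 had an embryo farther from the rest than Dixon's 95% limit allows. About 1 in 20 groups is expected to pass that limit by chance. All 5 were WT groups in which WT5 was the highest. *Fos* was at 5.15 CPM in WT5 with 1.39 CPM in the next WT embryo, *Jun* at 161 CPM with 95.7 CPM next, *Arc* at 11.6 CPM with 7.75 CPM next and *Nr4a1* at 10.8 CPM with 6.46 CPM next. *Egr2* was at 0.0241 CPM in WT5, which is 1 count, and at 0 in the other 4 WT embryos. Beside values of 0 alone, any count in WT5 would pass the limit, so the flag for *Egr2* carries no information. The members are correlated, so these are not 5 separate observations.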

How the results depend on the processing

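No immediate early gene was called under any of the 8 other settings or of the 9 fits that each left out 1 embryo. Over all genes, those 9 fits called from 0 to 5 higher and from 13 to 20 lower in HET (5 and 20 with all embryos). DESeq2 called 21 higher and 63 lower, the choroid plexus covariate 2 higher, and the embryos with low *Ttr* 3 higher and 12 lower, with fewer embryos in the last. Among the 8 tested members and the 13 genes named from the related lists, *Nr4a3* alone changed sides, called by DESeq2 (log2 fold change 0.32, adjusted p = 0.0101), with adjusted p up to 0.999 over its alternatives. *Fos* turned from −0.42 to 0.24 without WT5, and 5 other genes with values nearer to 0 also turned. Log2 fold changes with the covariate and in the low-*Ttr* embryos were −0.084 and −0.12 for *Junb*, −0.051 and −0.20 for *Nr4a1*, and 0.11 and 0.048 for *Nr4a2*. Limma-voom gave 0.055 for *Ier2*. Leaving out 1 embryo gave −0.62 to 0.24 for *Fos*, −0.21 to 0.15 for *Jun*, −0.076 to 0.20 for *Junb*, −0.12 to 0.24 for *Ier2*, −0.026 to 0.26 for *Nr4a1* and −0.23 to 0.032 for *Nr4a2*. The highest value of the first 5 was the fit without WT5. Over these fits the members' median log2 fold change ran from −0.09 to 0.24 and their median correlation from 0.30 to 0.82, lowest without WT5. The median log2 fold change was −0.13 with the covariate and −0.19 in the low-*Ttr* embryos, where the median correlation was 0.86. The cause of these changes was not tested.

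*Egr4* did not pass the filter in 4 of the 9 fits and under the stricter filter and was given no value there. No paired analysis was possible because WT and HET embryos share only the number 5 in their titles. With 4 and 5 embryos, *Fos* had a standard error of 0.45, and the other tested members had 0.11 (*Dusp1*) to 0.24 (*Egr1*). Differences of the size of a gene's standard error could not be seen, and some larger ones could also be missed. Even *Nr4a3*, at 0.32 with a standard error of 0.07, was not called in edgeR (adjusted p = 0.228). *Fosb* and *Egr2* had too few counts for any comparison.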
